A study of Mus musculus with 24 samples.

Results

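The 10 genes followed here, Bax, Bbc3, Pmaip1, Fas, Tnfrsf10b, Apaf1, Perp, Pidd1, Aen and Ei24, encode proteins of the cell death pathway whose transcription p53 is known to control. They were taken by symbol from the annotation column of 3 tables of counts per gene, each of which holds 55401 genes. Every symbol matched 1 row in each table, and all 10 genes passed the filter on low counts in all 3 tables.

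p53, encoded by Trp53, is a transcription factor that can kill a stressed cell by switching on genes at several points of the apoptosis pathway. Bbc3 (Puma) and Pmaip1 (Noxa) encode small proteins that bind and neutralise the pro-survival members of the BCL2 family, which lets BAX open the outer mitochondrial membrane. Released cytochrome c then binds APAF1, which assembles the apoptosome, while the death receptors FAS and TNFRSF10B (the mouse TRAIL receptor) start a separate route from the cell surface. PIDD1 is the scaffold of the PIDDosome, which activates an initiator caspase, PERP is a membrane protein of desmosomes, AEN is a nuclear exonuclease, and EI24 is a protein of the endoplasmic reticulum.

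RNA was measured in mouse pancreatic ductal adenocarcinoma (PDAC) cell lines in 11 groups, 24 libraries in all. KPsh cells carry a doxycycline-driven hairpin against Trp53, so p53 is silenced on the drug and returns when it is taken away; one group stayed for 10 days in doxycycline at 1 µg/ml and the other spent those 10 days without it (n = 3 each). KPnull cells, which have no p53 of their own, carried an inducible vector with no insert, or one for wild-type p53 (p53WT), p53 mutated in the first transactivation domain (TAD1m), in the second (TAD2m) or in both (TAD12m), each with n = 2. All KPnull groups, the vector included, were taken as given doxycycline at 1 µg/ml for 48 hours. KPsh cells in which Pcyt2 was knocked out (sgPcyt2), or knocked out and given back as a cDNA that resists the guide, were grown on or off doxycycline for 6 days, with n = 2 in each of these 4 groups. Pcyt2 encodes an enzyme of phosphatidylethanolamine synthesis. The labels give no other allele of these lines and do not say whether a line is 1 clone.

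Total counts per library ranged from 9393966 to 19431250. Trp53 RNA followed the labels: it was 21.1 ± 0.721 CPM (counts scaled to library size) in KPsh cells on doxycycline and 258 ± 5.87 off it (SD, n = 3), 5.33 ± 1.12 with the empty vector, and between 527 ± 3.75 and 668 ± 26.4 with the 4 p53 forms (SD, n = 2). The transcript kept for Trp53 differed between the KPnull table and the other 2, so these levels compare only within a set. The keratin genes Krt8, Krt18 and Krt19 of ductal cells reached at least 682 CPM in every library, whereas Krt7 was at most 2.4 CPM in the Pcyt2 set, Epcam reached no more than 1.38 CPM and Cldn4 no more than 0.436 CPM. Of 8 immune markers, 5 stayed below 1 CPM in every library (Adgre1 at 0, Ptprc at most 0.533 CPM), and Cd14, Csf1r and Cd68 were expressed. The summed level of the 8 differed between groups. In KPsh cells it was 31.1 to 31.4 CPM on and 56.9 to 58.3 CPM off doxycycline. In KPnull cells it was 111 CPM with the empty vector, 169 to 170.5 for p53WT, 137 to 143 for TAD1m and 187 to 188 for TAD2m. With TAD12m it was 99.9 to 107 CPM, below the vector. In the Pcyt2 set it was at most 25.4 on against 35.4 to 38.9 off doxycycline. No group of KPsh cells, edited or not, separates the return of p53 from the removal of doxycycline. The 2 therefore cannot be told apart in those cells. The summed epithelial level was also higher off doxycycline (6796 to 7092 CPM on and 12320 to 13000 off in KPsh cells), as was the endothelial one (0.227 to 0.731 and 2.79 to 3.23 CPM), in which Emcn was at 0. In the Pcyt2 set the endothelial sum was 2.24 to 2.78 CPM on and 6.67 to 8.27 off without the cDNA, and 0.662 to 0.826 and 6.67 to 7.22 with it. The part of these markers in the results was not tested. In bulk libraries, fewer cells of a type and less RNA per cell cannot be told apart. No label states that replicates came from separate cultures; the p-values gauge the spread of these libraries, possibly a technical one.

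For 7 of the 10 genes there was a RefSeq promoter window (build GRCm38.p6) running from 250 bases before the start site to 50 after it. p53 binds a pair of consensus decamers, and a search of both strands (the motif is its own reverse complement) found an exact copy of the decamer in 8.36% of the 32851 windows of the mouse genome. A full site of 20 bases without a spacer, matched at 17 positions or more, stood in 6.29% of them. Among the 7 genes, an exact decamer was found for Bax, Aen and Ei24, and a full site matched at 17 of 20 positions for Bax, Bbc3 and Aen. These 4 stretches are shown 5′ to 3′ on the strand of the gene because each holds such a full site or an exact decamer. Capitals mark the full site in Bax, Bbc3 and Aen and the decamer in Ei24.
Bax: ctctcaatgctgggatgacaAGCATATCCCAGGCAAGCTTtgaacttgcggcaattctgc
Bbc3: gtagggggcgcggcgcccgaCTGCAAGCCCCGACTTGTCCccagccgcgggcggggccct
Aen: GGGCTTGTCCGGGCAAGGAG
Ei24: ccagctgccccgtgcggcccGGGCATGCCC
The Bax stretch is chr7:45467070-45467129 on the minus strand, with the site at -211 to -192 from the start. The Bbc3 stretch is chr7:16309466-16309525 on the plus strand, with the site at -97 to -78. The Aen site is chr7:78895937-78895956 on the plus strand, at +11 to +30 from the first of its start sites. The Ei24 stretch is chr9:36797335-36797364 on the minus strand and ends in the decamer at -10 to -1 from the RefSeq start site. The transcript counted for Ei24 starts further upstream, at chr9:36797393, so the stretch lies within its span. Each match is a run of letters and was not measured as binding. The windows of Fas, Apaf1 and Pidd1 held no exact decamer and at most 15 of 20 positions of a full site. The best full site of Ei24 also matched at 15 of 20 positions, which 76.6% of all windows reached or passed. No window was used for Pmaip1, Tnfrsf10b or Perp.

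On the mm10 build of the count tables, 4 of the 10 genes lie on chromosome 7: Bax at chr7:45461697-45466898 in the KPsh table and chr7:45461867-45466831 in the other 2, Bbc3 at chr7:16309616-16318205, Pidd1 at chr7:141438113-141443992 and Aen at chr7:78895927-78911209. Apaf1 (chr10:90989318-91082770) and Perp (chr10:18845020-18857073) share chromosome 10. The others are Ei24 (chr9:36779159-36797393), Tnfrsf10b (chr14:69767472-69784411), Pmaip1 (chr18:66458533-66465560) and Fas (chr19:34290666-34327772). Counts are of exonic reads on either strand. The exons of Bax share 17.5% to 22.1% of their bases with Gm45808, a gene model on the same strand, and those of Ei24 share 2.79% with Gm26787, an antisense model, so reads there cannot be assigned to one gene. The transcript kept for Bax was 856 bases long in the KPsh table and 1091 in the other 2, so the Bax levels of different tables are not comparable.

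All 10 genes rose in KPsh cells when doxycycline was withdrawn for 10 days, from 1.48-fold for Bax to a count ratio of 142 for Fas (95% interval 60.7 to 440). Called means an adjusted p under 0.05 in edgeR's quasi-likelihood test with Benjamini-Hochberg adjustment over all genes tested; 33.1% of the 13990 genes tested rose, 31.7% fell and 64.8% changed in either direction, so a rise is common here and the size of the rise says more than its call. The median log2 change of the 10 was 1.17, against 0.007 over all genes tested. The on and off libraries of all 10 did not overlap, which was also true of 68.1% of all genes tested.

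Among the mitochondrial trigger genes, Pmaip1 stood at 11.9, 9.71 and 10.7 CPM with doxycycline present and at 43.9, 47.9 and 46.7 CPM after its removal. Every library off the drug stood above every library on it, and the change was 2.09 ± 0.10 on the log2 scale (SE; edgeR adjusted p = 2.54e-14), or 4.27-fold. Bbc3 went from 5.68, 6.58 and 5.89 CPM to 15.2, 14.9 and 17 CPM, a log2 change of 1.39 ± 0.13 (adjusted p = 4.78e-09). Bax, the effector that these proteins release, started high and moved least of the 10. Its libraries read 165, 159 and 156 CPM on and 241, 219 and 249 CPM off doxycycline, a log2 change of 0.57 ± 0.06 (adjusted p = 1.84e-08). Gm45808, which shares exon bases with Bax, rose from 43.5 ± 2.79 to 66.3 ± 3.67 CPM (SD, n = 3); its part in the Bax count was not tested. Apaf1, the core of the apoptosome, went from 58 ± 3.7 to 98.8 ± 6.6 CPM, a log2 change of 0.77 ± 0.07 (adjusted p = 2.63e-09).

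Of the death receptors, Fas was nearly silent with p53 knocked down, at 0.16, 0.209 and 0.0755 CPM, which is 5 reads in 3 libraries. Off doxycycline it measured 23.8, 19.1 and 20 CPM, or 687 reads. The ratio of the summed counts, scaled to library size, was 142, with a 95% interval of 60.7 to 440 that covers counting error only. Tnfrsf10b was expressed on the drug, at 67, 67.9 and 64.2 CPM, and read 145, 140 and 142 CPM off it, with libraries of a group within a few CPM of each other. Its log2 change was 1.10 ± 0.06 (adjusted p = 3.19e-13), so Tnfrsf10b gained more CPM than Fas and Fas far more in fold.

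Pidd1 rose by 1.82 ± 0.08 on the log2 scale, from 18.9 ± 1.37 to 66.7 ± 2.83 CPM (SD, n = 3; adjusted p = 2.12e-14), the third largest fold of the 10. Ei24 went from 95.6 ± 3.65 to 226 ± 6.57 CPM, a log2 change of 1.24 ± 0.06 (adjusted p = 2.45e-14). Perp rose from 338 ± 14 to 571 ± 30.8 CPM and Aen from 88.1 ± 3.23 to 142 ± 1.48 CPM, with log2 changes of 0.76 ± 0.06 and 0.69 ± 0.06. The 10 calls all held in each of 12 alternative fits. Per kilobase of transcript, off doxycycline, Perp (293 CPM per kb) and Bax (276) were the most abundant of the set, followed by Ei24 (102.5), Tnfrsf10b (45.1) and Aen (28.6). Pidd1 (18.4), Pmaip1 (17), Apaf1 (15.2) and Fas (14.3) formed a narrow group, and Bbc3 was lowest at 8.7 CPM per kb. On doxycycline the same scale ran from 187 for Bax and 174 for Perp down to 3.35 for Bbc3 and 0.101 for Fas. Fas and Bbc3 thus changed places, as did Bax and Perp. Apaf1 (8.9) stood above Pidd1 (5.22) and Pmaip1 (3.95) on the drug and below both off it.

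Introducing wild-type p53 into KPnull cells for 48 hours raised all 10 genes as well (25.5% of 15075 genes tested rose, 25.1% fell and 50.6% changed), with a median log2 change of 0.95 against -0.007 over all genes. The vector and p53WT libraries did not overlap for any of the 10, as for 72.9% of all genes. The other forms show how far each gene responded with a transactivation domain mutated. With TAD1m 7 of the 10 rose and 3 were not called (19% of all genes rose and 36.4% changed), and 8 did not overlap the vector (68.2% of all genes). With TAD2m 9 rose and 1 was not called (24.9% rose and 49.1% changed), and all 10 did not overlap (74.1%). With TAD12m 2 were higher and 1 lower (2% and 1.85% of all genes, 3.85% in either direction), and 6 did not overlap (35.8%). These 4 comparisons share the same 2 vector libraries. Medians of the log2 change were 0.63 with TAD1m, 0.84 with TAD2m and 0.11 with TAD12m.

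**Figure D1:**
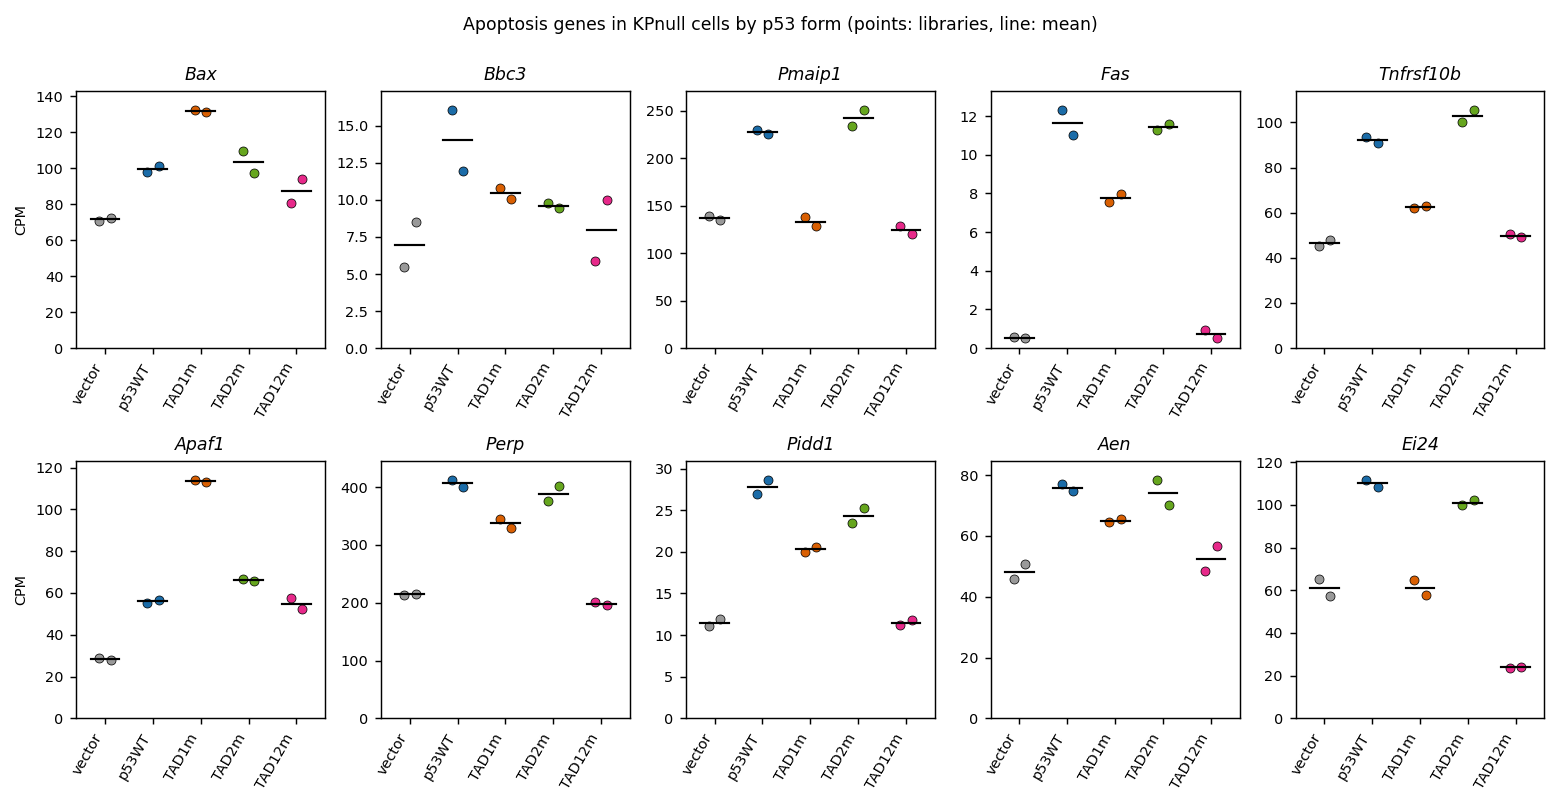
Level of each gene (CPM, linear axis from 0, a separate scale per gene) in KPnull cells by p53 form; points are libraries (n = 2 per group) and lines are group means. TAD1m is the highest group for Bax (132 CPM) and Apaf1 (114 CPM), sits at the vector level for Pmaip1 and Ei24, and lies between vector and p53WT for the others.

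Pmaip1 was already abundant in KPnull cells with the empty vector, at 140 and 136 CPM, where the separately normalised KPsh libraries on doxycycline read near 11 CPM. It stood at 229.5 and 226 CPM with p53WT, 138 and 128.5 with TAD1m, 234 and 251 with TAD2m and 129 and 121 with TAD12m. The groups fell into a low set (vector, TAD1m, TAD12m) and a high set (p53WT, TAD2m) that did not overlap. Its log2 change against vector was 0.73 ± 0.06 with p53WT (adjusted p = 3.94e-08) and 0.82 ± 0.06 with TAD2m, but -0.04 ± 0.06 with TAD1m (adjusted p = 0.613) and -0.14 ± 0.06 with TAD12m (adjusted p = 0.319). TAD1m against p53WT was tested directly and was lower by a log2 difference of -0.77 ± 0.06 (adjusted p = 4.07e-08).

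Ei24 divided the forms in the same way and went further with the double mutant. Its libraries read 65.3 and 57.3 CPM with vector, 112 and 108 in p53WT cells, 64.8 and 57.6 with TAD1m, 99.8 and 102 in TAD2m cells, and 23.7 and 24.1 with TAD12m. TAD1m overlapped the vector and both TAD12m libraries lay far below it. Against vector the log2 change was 0.84 ± 0.07 with p53WT, -0.004 ± 0.075 with TAD1m (adjusted p = 0.973) and -1.36 ± 0.08 with TAD12m (adjusted p = 4.97e-08), a fall of 2.57-fold. The fall with TAD12m was called in all 11 alternative fits and ranged from -1.45 to -1.26 when 1 library was left out. Ei24 was the only one of the 10 called lower against vector with any form.

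Apaf1 and Bax were ordered differently, with TAD1m on top. Apaf1 read 29.1 and 28 CPM with vector, 55 and 56.9 in p53WT cells, 114 and 113 with TAD1m, 66.8 and 65.8 in TAD2m cells, and 57.5 and 52.3 with TAD12m. TAD1m stood apart above all other libraries, TAD2m came next, and p53WT and TAD12m overlapped. Against vector, Apaf1 rose by 0.97 ± 0.07 on the log2 scale with p53WT, 1.99 ± 0.07 with TAD1m (adjusted p = 2.41e-12), 1.21 ± 0.07 with TAD2m and 0.94 ± 0.07 with TAD12m (adjusted p = 8.31e-07). TAD1m exceeded p53WT by 1.02 ± 0.07 (adjusted p = 3.88e-09), a call that held in all 11 alternative fits.

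Bax measured 70.6 and 72.6 CPM with vector, 98.1 and 101 in p53WT cells, 133 and 131.5 with TAD1m, 109 and 97.3 in TAD2m cells and 80.6 and 94.3 with TAD12m. TAD1m again lay above every other library, while p53WT and TAD2m overlapped. TAD1m exceeded p53WT by 0.41 ± 0.07 on the log2 scale (adjusted p = 3.56e-04). The rise of Bax with TAD12m was small, 0.29 ± 0.08 (adjusted p = 0.0428), and was not called without TAD12m replicate 2 (log2 0.17, adjusted p = 0.327), without vector replicate 1 (0.27, adjusted p = 0.215), without vector replicate 2 (0.31, adjusted p = 0.101) or with only those 2 groups in the fit (0.29, adjusted p = 0.236). Gm45808 moved with it, from 20.2 ± 0.189 CPM with vector to 27.9 ± 0.663 with p53WT and 38.9 ± 0.318 with TAD1m (SD, n = 2). Its part in the Bax count was not tested.

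Fas was low with vector, at 0.561 and 0.526 CPM (19 reads), and with TAD12m, at 0.949 and 0.545 CPM (28 reads). It reached 12.3 and 11 CPM with p53WT, 7.57 and 7.99 with TAD1m and 11.3 and 11.6 with TAD2m. The log2 change against vector was 4.40 ± 0.22 with p53WT, 3.81 ± 0.23 with TAD1m and 4.37 ± 0.22 with TAD2m, and 0.45 ± 0.37 with TAD12m (adjusted p = 0.777). The shortfall of TAD1m against p53WT, -0.59 ± 0.14 (adjusted p = 0.00256), was called in all 11 alternative fits. Tnfrsf10b had a narrower range, with TAD2m above p53WT by libraries: 46.6 ± 1.92 CPM with vector, 92 ± 1.88 in p53WT cells, 62.5 ± 0.799 with TAD1m, 103 ± 3.75 in TAD2m cells and 49.8 ± 0.926 with TAD12m (SD, n = 2). Its TAD1m libraries were higher than vector (log2 0.42 ± 0.07, adjusted p = 8.15e-05) and lower than p53WT (-0.56 ± 0.06, adjusted p = 2.54e-06), so that TAD1m gave an intermediate level.

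Pidd1, Perp and Aen were also intermediate with TAD1m. Pidd1 was 11.5 ± 0.58 CPM with vector, 27.8 ± 1.17 in p53WT cells, 20.3 ± 0.431 with TAD1m, 24.3 ± 1.28 in TAD2m cells and 11.5 ± 0.46 with TAD12m. Perp was 214 ± 1.13 with vector, 406.5 ± 8.06 in p53WT cells, 337 ± 10.6 with TAD1m, 389 ± 18.5 in TAD2m cells and 198 ± 4.03 with TAD12m. TAD1m against p53WT gave log2 differences of -0.45 ± 0.09 for Pidd1 (adjusted p = 7.46e-04) and -0.27 ± 0.05 for Perp (adjusted p = 7.41e-04). For Aen (48.2 ± 3.55 CPM with vector, 75.9 ± 1.54 with p53WT and 65 ± 0.792 with TAD1m) the difference was -0.22 ± 0.08 (edgeR adjusted p = 0.0394). This call was lost when any 1 of the 4 libraries was left out, with log2 values from -0.25 to -0.20. It was also lost in DESeq2 (-0.24, adjusted p = 0.0609) and in edgeR with scaling to library totals only (-0.175, adjusted p = 0.102).

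Bbc3 was the least settled of the 10 in KPnull cells, since the replicates of vector, p53WT and TAD12m lay far apart. It read 5.46 and 8.48 CPM with vector, 16.1 and 12 in p53WT cells, 10.8 and 10.1 with TAD1m, 9.77 and 9.43 in TAD2m cells and 5.91 and 10 with TAD12m. Both p53WT libraries were the highest of the set, and TAD12m spanned all of TAD2m and reached from the vector level to just below TAD1m. The rise with p53WT was 1.04 ± 0.28 on the log2 scale (adjusted p = 0.0126) and was not called without vector replicate 1 (0.73, adjusted p = 0.0622) or without p53WT replicate 1 (0.80, adjusted p = 0.0763). With TAD1m the change was 0.61 ± 0.28 (adjusted p = 0.132; 0.93 and adjusted p = 0.035 without vector replicate 2), and with TAD2m 0.49 ± 0.29 (adjusted p = 0.209). Without the filter on low counts both were called (0.62 and 0.51, adjusted p = 2.98e-04 and 0.00461).

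**Figure D2:**
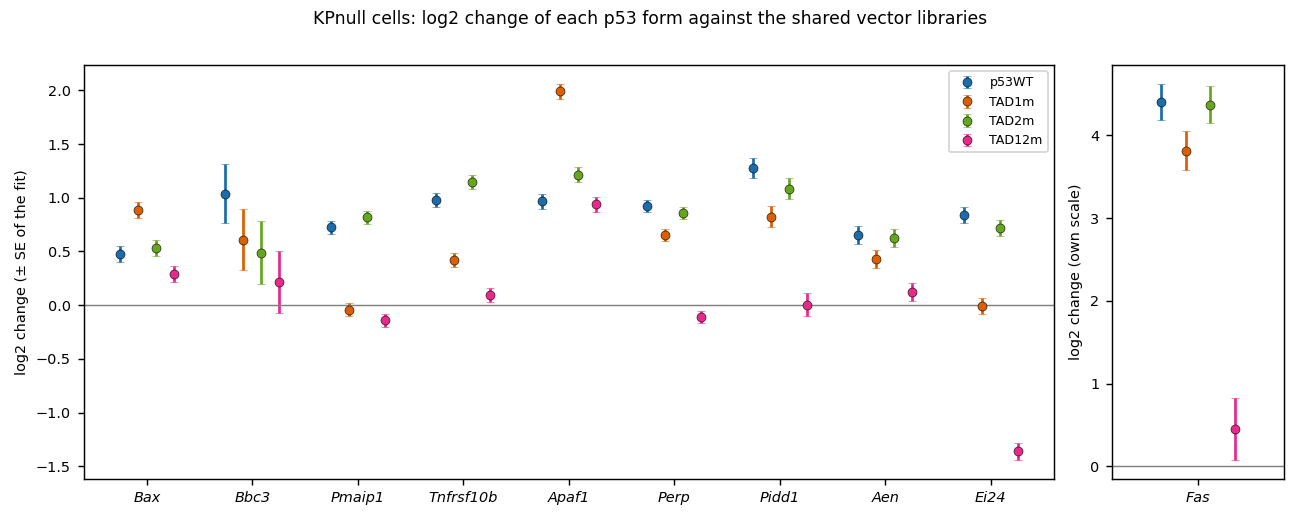
Log2 change against the shared vector libraries for each p53 form in KPnull cells, with a standard error derived from edgeR's test. Fas has its own axis on the right. TAD2m tracks p53WT for most genes, TAD1m is near 0 for Pmaip1 and Ei24 and highest for Apaf1 (1.99) and Bax (0.88), and TAD12m was called for Apaf1 (0.94), Bax (0.29) and Ei24 (-1.36).

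Tested directly, TAD1m differed from p53WT in 9 of the 10 genes in edgeR, and in 8 in DESeq2, where Aen was lost. In edgeR 2 were higher (Apaf1 and Bax) and 7 lower (20.4% and 18.7% of all genes, 39.1% in either direction). The libraries of all 10 did not overlap (71% of all genes). The gene not called in edgeR was Bbc3, at -0.43 ± 0.26 (adjusted p = 0.239). It was called without the filter on low counts (-0.43, adjusted p = 0.00868) and with only those 2 groups fitted (-0.46, adjusted p = 0.0044). In edgeR 0 of the 10 were called between TAD2m and p53WT, in DESeq2 also 0, and of all genes 0.199% were higher, 0.0862% lower and 0.285% changed in edgeR; 3 of the 10 had an unadjusted p under 0.05, namely Apaf1 (0.00212), Tnfrsf10b (0.0183) and Pidd1 (0.0479). The differences of TAD2m from p53WT ran from -0.55 ± 0.27 for Bbc3 to 0.25 ± 0.07 for Apaf1. Trp53 RNA itself was lower with TAD2m than with p53WT (-0.34 ± 0.06, adjusted p = 0.0242), and its part in these values was not tested. TAD1m against TAD12m, which differ in the second domain, left 8 of the 10 higher with TAD1m (16.8% of all genes, 31% in either direction), from 0.31 ± 0.08 for Aen to 3.36 ± 0.22 for Fas. The call for Aen was lost without TAD12m replicate 1 (0.20, adjusted p = 0.103) or without either TAD1m library (0.31 and 0.29, adjusted p = 0.055 and 0.0796). Pmaip1 (0.10 ± 0.06, adjusted p = 0.263) and Bbc3 (0.40 ± 0.27, adjusted p = 0.324) were not called, although Bbc3 was without TAD12m replicate 2 (0.82, adjusted p = 0.0216).

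In Pcyt2-edited KPsh cells, 6 days off doxycycline raised 9 of the 10 genes and lowered Perp (39.2% of 14916 genes rose, 37.1% fell and 76.3% changed). With the Pcyt2 cDNA all 10 rose, Perp included (37.3% rose, 36.3% fell and 73.5% changed). The median log2 change of the 10 was 1.02 without and 1.2 with the cDNA, against 0.024 and 0.02 over all genes. Libraries on and off the drug did not overlap for any of the 10 in either state, as for 86.5% of all genes in each state, and all 20 calls held in the 11 alternative fits of each comparison. Without the cDNA, Trp53 RNA went from 20.9 ± 2.48 CPM to 41.9 ± 0.318 CPM after withdrawal, and with the cDNA from 19.8 ± 0.651 to 92 ± 7.36 CPM (SD, n = 2), and the part of this difference in the values that follow was not tested.

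**Figure D3:**
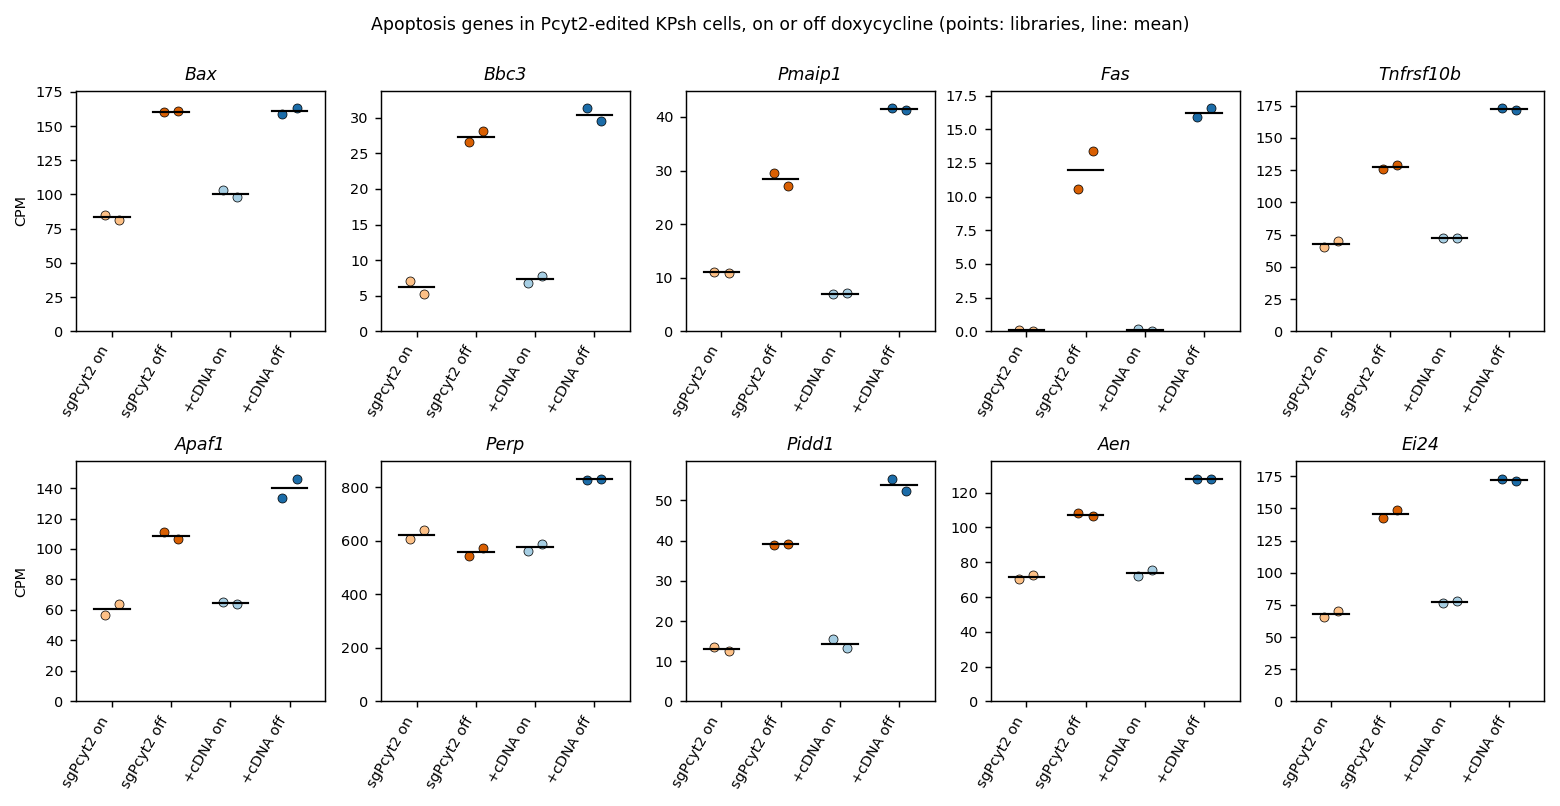
Level of each gene (CPM, linear axis from 0, a separate scale per gene) in Pcyt2-edited KPsh cells, on or off doxycycline, without (orange) or with (blue) the Pcyt2 cDNA; points are libraries (n = 2 per group) and lines are group means. Off doxycycline the cDNA libraries lie above the others for 9 genes (8 of them called, Bbc3 not), Bax overlaps (means of 160 and 161 CPM), and Perp is lower off than on the drug only without the cDNA (558 against 622 CPM).

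Among the genes followed here, only Perp changed in opposite directions without and with the Pcyt2 cDNA. Without the cDNA it read 607 and 638 CPM on and 542 and 574 CPM off doxycycline, a log2 change of -0.16 ± 0.04 (adjusted p = 4.02e-04). With the cDNA it read 563 and 588 CPM on and 826 and 831.5 CPM off, a log2 change of 0.53 ± 0.04 (adjusted p = 1.83e-16). The 2 cDNA libraries off the drug were the highest of the 8. The interaction, the change without the cDNA minus the change with it, was -0.68 ± 0.06 (adjusted p = 8.1e-14) and was called in all 14 alternative fits.

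Pmaip1 gave the largest interaction of the 10, at -1.196 ± 0.153 (adjusted p = 2.09e-08), also called in all 14. On doxycycline it read 11.1 and 10.9 CPM without the cDNA and 6.91 and 7.08 CPM with it, and off doxycycline 29.6 and 27.1 against 41.6 and 41.3 CPM. The cells without Pcyt2 therefore began higher and ended lower, with log2 differences of 0.65 ± 0.13 on (adjusted p = 1.67e-04) and -0.55 ± 0.08 off the drug (adjusted p = 3.29e-07). Its rise was 2.58-fold without and 5.91-fold with the cDNA.

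Bax went the other way, rising by 0.95 ± 0.05 without and 0.68 ± 0.05 with the cDNA, with an interaction of 0.27 ± 0.07 (adjusted p = 0.00196). It began lower without the cDNA (85.1 and 81.6 CPM against 103 and 98.2) and overlapped off doxycycline (160.1 and 160.8 CPM against 158.7 and 162.9). Gm45808 was 23.3 ± 0.928 on and 43.5 ± 0.447 CPM off doxycycline without the cDNA, and 29.1 ± 0.798 and 43.6 ± 2.4 CPM with it. Tnfrsf10b rose by 0.91 ± 0.05 without and 1.25 ± 0.05 with the cDNA (interaction -0.35 ± 0.07, adjusted p = 1.57e-04).

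Across the interaction, 1 of the 10 genes was higher and 6 lower (12.8% and 12.4% of all genes, 25.2% in either direction), and 3 were not called; DESeq2 called 4 of the 10. The interactions of Apaf1 (-0.26 ± 0.08, adjusted p = 0.0118), Pidd1 (-0.35 ± 0.13, adjusted p = 0.0472) and Aen (-0.20 ± 0.07, adjusted p = 0.0315) were lost in DESeq2, with adjusted p of 0.0633, 0.173 and 0.116. They were also lost when single libraries were left out. For Apaf1 these were sgPcyt2 on-dox replicate 2 (-0.17), cDNA on-dox replicate 2 (-0.25) and cDNA off-dox replicate 2 (-0.22). For Pidd1 they were sgPcyt2 on-dox replicate 1 (-0.29) and off-dox replicate 1 (-0.36), and cDNA on-dox replicate 2 (-0.22) and off-dox replicate 1 (-0.33). For Aen they were sgPcyt2 on-dox replicate 2 (-0.18) and cDNA on-dox replicate 1 (-0.17). Bbc3 (0.10 ± 0.18), Ei24 (-0.05 ± 0.07) and Fas (-0.44 ± 1.52) were not called, and the interval for Fas is wide because it rests on 4 reads on doxycycline.

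Bbc3 rose by 2.14 ± 0.12 without and 2.05 ± 0.12 with the cDNA, from 7.08 and 5.23 to 26.6 and 28.1 CPM and from 6.84 and 7.79 to 31.3 and 29.6 CPM. Ei24 rose by 1.11 ± 0.05 and 1.16 ± 0.05. Fas had 2 reads on doxycycline in each state, both reads in replicate 1, against 349 off it without the cDNA and 510 with it. The ratios were 186 (95% interval 51.1 to 1540) and 252 (69.5 to 2090), counting error only. Without replicate 1 of the on-dox libraries, no read was left on doxycycline, and the fitted log2 changes moved from 7.35 to 10.50 and from 7.79 to 10.97.

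Off doxycycline, cells without the cDNA had lower levels of 8 of the 10 genes than cells with it (16.8% of all genes), from -0.24 ± 0.05 for Ei24 to -0.57 ± 0.04 for Perp; the libraries of 9 did not overlap (65.1% of all genes). Bax (-0.003 ± 0.045, adjusted p = 0.968) and Bbc3 (-0.15 ± 0.09, adjusted p = 0.207) were not called. Fas, at 10.6 and 13.4 against 16 and 16.6 CPM (-0.44 ± 0.13, adjusted p = 0.00732), was not called in DESeq2 (adjusted p = 0.146), without sgPcyt2 off-dox replicate 1 (-0.28, adjusted p = 0.233) or without cDNA off-dox replicate 2 (-0.42, adjusted p = 0.0534). On doxycycline 2 genes were higher without the cDNA, Pmaip1 and Perp, and 2 lower, Bax and Ei24 (8.4% and 10% of all genes); 6 of the 10 did not overlap (54.6%). The calls for Perp (0.11 ± 0.04, adjusted p = 0.0378) and Ei24 (-0.19 ± 0.05, adjusted p = 0.00816) were lost without sgPcyt2 on-dox replicate 2 for Perp (0.08) and replicate 1 for Ei24 (-0.14). Both were lost without cDNA on-dox replicate 2 (0.14 and -0.17), and that of Perp also without cDNA on-dox replicate 1 (0.08). The call for Ei24 was also lost in DESeq2 (-0.18, adjusted p = 0.0593).

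**Figure D4:**
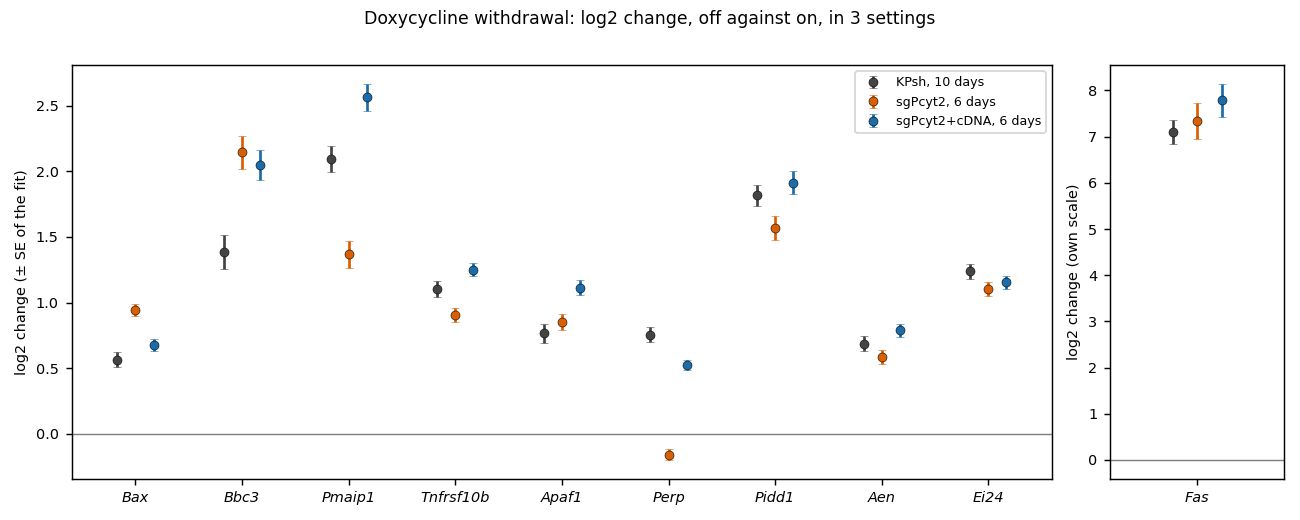
Log2 change off against on doxycycline, with a standard error derived from edgeR's test. Values are for KPsh cells (10 days, n = 3 per group) and Pcyt2-edited KPsh cells without or with the Pcyt2 cDNA (6 days, n = 2 per group). Fas has its own axis. Perp without the cDNA is the only value below 0 (-0.16), and Pmaip1 spreads from 1.37 to 2.56.

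The 3 withdrawals differ in time and in how far Trp53 RNA rose (log2 3.62 in KPsh, 1.00 in sgPcyt2 and 2.21 in cDNA cells). The cells differed in more than the edit: Krt7 was 205 to 1048 CPM in the KPsh set and 0.19 to 2.4 CPM in the Pcyt2 set. The libraries were also counted in 2 tables, so these values stand side by side without a test. Fas gave the highest log2 change in each (7.10, 7.35 and 7.79 in KPsh, sgPcyt2 and cDNA cells). Bbc3 stood at 1.39, 2.14 and 2.05, Pmaip1 at 2.09, 1.37 and 2.56, and Pidd1 at 1.82, 1.57 and 1.91. Ei24 was nearly level at 1.24, 1.11 and 1.16. Over the 11 group means, centred within each table on the log2(CPM + 1) scale, Fas and Pidd1, and likewise Pidd1 and Aen, followed each other most closely (Pearson r = 0.99 for both pairs), and Apaf1 and Ei24 least (r = 0.446). These are descriptions over groups that share controls.

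By the same measure, the genes most like each member among 10027 were found. For Fas they were Cdc42bpg, Pon2 and Tspan9 (r = 0.997 each) and for Pidd1 Hes6 (0.995), Ak1 (0.994) and Cdip1 (0.993). For Bbc3 they were Itm2b (0.992), Rnf181 and Abcb8, for Pmaip1 Fam107b (0.991), Zbtb10 and Rab2a, and for Tnfrsf10b 1700040L08Rik (0.993), Tgfbr2 and Copa. Perp was nearest to Maea (0.993), Aen to Bet1l (0.994), Ei24 to Nudt14 (0.981), and Apaf1 to Tctn1 (0.98). The nearest to Bax was Gm45808 (0.994), the model that shares its exon bases, followed by Vps28 (0.991).

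Other genes of the pathway moved in both directions. Beside the counts below, 33.1% of all genes rose and 31.7% fell in KPsh cells. The shares in KPnull cells were 25.5% and 25.1% with p53WT, 19% and 17.5% with TAD1m, and 24.9% and 24.2% with TAD2m. Of 12 further death and survival genes under p53 that were tested in KPsh cells, 10 rose off doxycycline and 2 were not called (median 1.33), led by Trp53inp1 (4.37 ± 0.19 on the log2 scale), the decoy receptor gene Tnfrsf23 (2.36 ± 0.06) and Zmat3 (1.81 ± 0.06). In KPnull cells 8 of 12 rose and 1 fell with p53WT (median 0.92). With TAD1m 9 rose and 1 fell (0.93), and with TAD2m 8 rose and 1 fell (0.86). Trp53inp1 rose by 4.35 ± 0.09, 3.05 ± 0.10 and 4.25 ± 0.09, in the same order. Against p53WT, TAD1m was higher for 3 of the 12 and lower for 5 (20.4% and 18.7% of all genes). Steap3 stood at 1.13 ± 0.15 and Trp53inp1 at -1.30 ± 0.07 there. Of 4 pro-survival BCL2 genes tested, 3 rose off doxycycline in KPsh cells (median 0.39) and all 4 with p53WT (median 0.52). Bcl2l1, which encodes BCL-XL, went up by 1.00 ± 0.05 in KPsh cells and 1.23 ± 0.07 with p53WT, and with TAD1m it lay below p53WT by a log2 difference of -1.26 ± 0.07 (adjusted p = 8.34e-10).

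Among 12 caspase, apoptosome and DNA cleavage genes, 4 rose and 3 fell in KPsh cells (median -0.07), where 33.1% and 31.7% of all genes did. Casp6 was up by 1.48 ± 0.13, and Casp2, the caspase that PIDD1 activates, was down by a log2 change of -0.87 ± 0.08. With p53WT 2 rose and 3 fell (25.5% and 25.1% of all genes), Casp6 by 1.16 ± 0.10 and Casp2 by -0.68 ± 0.07. These counts lie near the shares of all genes, and the same shares stand beside the lists that follow. Of 9 death receptor signalling genes tested, 5 rose and 4 were not called in KPsh cells (median 0.23), 4 rose and 1 fell with p53WT (0.12), and Cflar, the inhibitor of receptor-driven death, rose by 1.39 ± 0.07 and 0.74 ± 0.07. Of 8 further pro-death BCL2 genes 4 rose and 2 fell in KPsh cells (median 0.14). Bnip3l stood at 0.83 ± 0.11, Bad at 0.585 ± 0.086 and Bok at -0.93 ± 0.11. Of 7 genes for inhibitors of apoptosis and their antagonists, 1 rose and 4 fell in KPsh cells (median -0.37), and 1 rose and 3 fell with p53WT (-0.16). With TAD12m, 2 of the 12 further p53 genes were higher and 1 lower (2% and 1.85% of all genes), with a median of 0.09. Zmat3 was higher by 0.58 ± 0.06 (edgeR adjusted p = 1.58e-05).

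In the Pcyt2 set 11 of the further p53 genes were tested. Off doxycycline 8 rose and 1 fell without the cDNA (median 0.4), and 9 rose and 1 fell with it (median 0.62). Of all genes, 39.2% rose and 37.1% fell without the cDNA, and 37.3% and 36.3% with it. Trp53inp1 gave 6.15 ± 0.08 and 6.36 ± 0.08. Tnfrsf23 was higher without the cDNA on the drug (0.76 ± 0.05) and lower off it (-0.63 ± 0.04), as was Pmaip1. All 4 pro-survival BCL2 genes rose in both states (medians 0.6 and 0.56), and Casp2 fell in both (-0.93 ± 0.07 and -1.03 ± 0.07).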

How the data were processed

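Expected counts, in steps of 0.5, were deposited by the authors per gene and library without normalization, in 3 tables. Per the submitters' processing notes, STAR 2.6.1c and HOMER were used on mm10, and per the file headers exonic reads on both strands were counted over 1 transcript per gene. The library kit keeps strand, per the labels' protocols, but the counts do not. Columns for KPsh cells off doxycycline and for the cDNA groups were matched by elimination.

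Rounding to whole counts (0.5 upwards) moved no total by over 0.0533%. Genes were kept by filterByExpr (13990, 15075 and 14916), scaled by TMM, and tested with edgeR 4.0.16 (R 4.3.3, limma 3.58.1) by robust quasi-likelihood fits in which all groups of a table share the spread. Benjamini-Hochberg adjustment ran over every gene tested. CPM uses TMM-adjusted library sizes. The SE of a log2 change was derived from edgeR's test. It is the absolute log2 change before shrinkage, divided by the square root of the test's F statistic. DESeq2 1.42.0, other scalings, filters, a replicate block and leaving out each library were the alternatives. The code was tested on simulated data. No pair of replicates was alike within counting noise. The fold of a group with few counts is a count ratio with an exact interval.

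The 10 genes and the gene lists were chosen with earlier results of these data known. Named genes are the 10, Trp53, up to 3 called genes per list and comparison with the largest absolute log2 change and a mean of at least 5 CPM, and the 3 genes most like each of the 10; some of those are given only as counts. Marker lists covered epithelial, immune, fibroblast, endothelial, and acinar or endocrine cells. The highest fibroblast, endothelial and acinar or endocrine markers reached 8.84, 8.12 and 4.69 CPM (Pdgfra, Cdh5 and Cela1). Overlaps of exons were read from GENCODE vM21. One named gene and one marker are not reported here.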

Additional observations from a re-analysis of the deposited data

Results flagged for a closer look

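The response to doxycycline withdrawal differed with the Pcyt2 state for the genes named here, by edgeR's test of the interaction (log2 change without the Pcyt2 cDNA minus the change with it, n = 2 per group). Of the 10 p53-controlled apoptosis genes, Bax was positive (0.266) and 6 were negative (12.8% and 12.4% of all genes): Pmaip1 (-1.196), Perp (-0.684), Tnfrsf10b (-0.346), Pidd1 (-0.345), Apaf1 (-0.263) and Aen (-0.204). The calls for Apaf1, Pidd1 and Aen were lost in DESeq2 (adjusted p = 0.0633, 0.173 and 0.116) and when certain single libraries were left out. The genes outside the 10 are up to 3 called ones per list, those with the largest absolute log2 change. Several lie near the threshold by edgeR's test. Among pro-death and pro-survival BCL2 genes the interaction was 2.462 for Bmf (adjusted p = 4.96e-04), 0.494 for Bok (adjusted p = 0.0264) and -0.196 for Bcl2l1 (adjusted p = 0.012). Among caspase and apoptosome genes it was -0.427 for Casp6 (adjusted p = 0.0222) and -0.298 for Cycs (adjusted p = 0.00589). For Cflar and Tnfrsf12a, of the death receptor signalling list, it was -0.737 and -0.544 (adjusted p = 6.6e-12 and 1.05e-06). For the genes of inhibitors of apoptosis and their antagonists it was -0.885 for Birc5 (adjusted p = 7.53e-07), 0.314 for Diablo (adjusted p = 0.0379) and 0.231 for Birc6 (adjusted p = 0.00716). The decoy receptor genes Tnfrsf23 and Tnfrsf22 gave -1.393 and -0.674 (adjusted p = 1.49e-21 and 2.65e-09), and Ckap2 gave -0.65 (adjusted p = 5.54e-07). Trp53 RNA had an interaction of -1.22 ± 0.12, the sign of the negative values here and opposite to the positive ones. Its part in them was not tested.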

How the results depend on the processing

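Over the 10 genes and 13 comparisons, 1421 values kept their side of the threshold, 39 lost and 9 gained a call, and 0 values that were called changed sign. Of the 1421, 22 were uncalled values whose sign changed. Without the filter on low counts, TAD2m against p53WT gave 1 of the 10 genes (Bbc3) and 107 genes in all, against 0 and 43. Fitting only the groups compared gave 99 genes there and 160 rather than 580 for TAD12m against vector. With DESeq2 the interaction gave 4 rather than 7 of the 10 and 2421 rather than 3759 genes, and without against with the cDNA gave 1578 rather than 2746 genes on doxycycline and 3088 rather than 4944 off it. Leaving out 1 library gave 13 to 23 genes for TAD2m against p53WT, 352 to 504 for TAD12m against vector, 2760 to 4750 (main 4678) for TAD1m against TAD12m, and, without against with the cDNA on doxycycline, 2 to 3 of the 10 genes (main 4) and 1680 to 2141 genes. The cause of these shifts was not tested.

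Replicate numbers were not taken as pairing the samples, since no label says so: same-numbered libraries correlated at -0.148 to -0.142 in the KPsh set, where no library correlated best with its own number, at -0.317 to 0.482 in the KPnull set (0.482 between vector and TAD12m, 0.103 and 0.102 between TAD1m and those) and at -0.088 to 0.012 in the Pcyt2 set. With the replicate block, 10 of the 10 genes were called in KPsh cells (8665 genes in all, main 9063), 2 rather than 3 for TAD12m against vector (Bax lost, adjusted p = 0.0635) and 6 rather than 7 for the interaction (Pidd1 lost, adjusted p = 0.0536); the block changed no other call of the 10 genes. With n = 2, where a group is left with 1 library, that library is assumed to vary like the others. Depth limits Fas most, since 2 to 5 reads stand for it in a KPsh or Pcyt2-edited group on doxycycline.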

Other observations

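Of the pathway genes outside the 10 that the rule names, Dffb and Bmf were singled out after their values were seen. Dffb encodes the nuclease that cuts DNA between nucleosomes late in apoptosis. It measured 5.46 ± 0.288 CPM with vector, 5.77 ± 0.634 with p53WT, 5.23 ± 0.732 with TAD2m and 6.03 ± 0.125 with TAD12m, and 18 ± 2.21 with TAD1m (SD, n = 2). TAD1m exceeded p53WT by 1.64 ± 0.14 on the log2 scale (edgeR adjusted p = 1.05e-07) and TAD12m by 1.58 ± 0.13. Like Apaf1, it was highest with TAD1m.

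Bmf encodes a pro-death protein of the BCL2 family. Without the Pcyt2 cDNA it stood at 1.17 ± 0.847 CPM with doxycycline and 56.4 ± 4.47 CPM after its withdrawal, and at 0.56 ± 0.04 and 5.01 ± 0.04 CPM with the cDNA (SD, n = 2). Off doxycycline the difference was 3.49 ± 0.13 on the log2 scale (edgeR adjusted p = 2.72e-25), opposite in sign to those of the 8 p53-controlled genes called there. In unedited KPsh cells, a separate set grown for 10 days, Bmf read 2.29 ± 0.559 CPM on and 1.70 ± 0.539 CPM off doxycycline (SD, n = 3).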
